A study of Mus musculus with 31 samples.

Results

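The IL-1 and IL-18 family was followed through 10 genes chosen by symbol: the ligands Il1a, Il1b and Il18, the receptor antagonist Il1rn, the receptor chains Il1r1, Il1rap, Il1r2, Il18r1 and Il18rap, and Nlrp3. All 10 were among the 48211 gene symbols that every count table of the series holds, and all 10 passed the filter on low counts in each of the 13 comparisons. The libraries were 31 poly-A RNA-seq samples of C57B/6 mice that model peripheral T cell lymphoma with a conditional Vav1-Myo1f fusion allele. In the pre-lymphoma set, CD4+ T cells came from 2 control libraries labelled CD4-Cre-ERT2(WT), from 3 libraries whose genotype label joins that control and the fusion genotype Vav1Myo1f fl/wt with CD4CreERT2 by a slash (control/fusion), and from 3 libraries whose label names the fusion genotype on both sides of the slash (fusion/fusion). The labels do not say what the slash means. In the CD4-Cre set, where Cre recombinase is driven by Cd4 regulatory sequence, CD4+ cells and whole spleens of 3 CD4-Cre(WT) controls were compared with CD4+ cells of 4 and spleens of 3 tumor mice carrying CD4-Cre and Vav1Myo1f fl/wt. In the CD4-CreERT2 set, whose Cre acts in the presence of tamoxifen, there were CD4+ cells of 2 and spleens of 3 CD4-CreERT2 (WT) controls, and CD4+ cells of 2 and spleens of 3 tumor mice carrying CD4-CreERT2 and Vav1Myo1f fl/wt. The control labels of all 3 sets name a Cre driver with WT and no fusion allele. The series title spells the fusion VAV1-MYOF, the genotype labels Vav1Myo1f. Ages and any tamoxifen dosing are not given in the sources used here. The number in a title is taken as the mouse, the number VM645 is shared by a control and a tumor mouse, and nothing states that the libraries of the pre-lymphoma set came from separate animals, so p-values there measure the spread between libraries.

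IL-1 alpha and IL-1 beta both bind a receptor made of IL1R1 and its accessory chain IL1RAP, which signals through MyD88 and the IRAK kinases. IL1RN occupies IL1R1 without signalling, and IL1R2 binds IL-1 but has no signalling domain, so it acts as a decoy. IL-18 signals through IL18R1 and IL18RAP, is held back by the secreted binding protein IL18BP, and drives interferon gamma production in T and NK cells. NLRP3 nucleates an inflammasome in which caspase-1 cuts the precursors of IL-1 beta and IL-18. Myeloid cells are the usual source of IL-1 beta and NLRP3, whereas activated, regulatory and memory T cells are known to carry the receptors and the decoy.

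The promoters of 4 members are shown because they carry the contrast that the pre-lymphoma cells made between genes that rose and a gene whose groups overlapped. Il1rn, Il1r1 and Il18rap were higher in both pre-lymphoma groups, while Il1b was not called in either. Each sequence is the stretch before the most upstream RefSeq start (GRCm38.p6), 5′ to 3′ on the strand of the gene, from chr2:24336610-24336852 for Il1rn, chr1:40224830-40225079 for Il1r1, chr1:40515112-40515361 for Il18rap (all on the plus strand) and chr2:129371140-129371389 for Il1b (minus strand). Capitals mark matches to the motifs searched. Each stretch is printed up to the first annotated exon base of its gene. For Il1rn it ends at chr2:24336852, while the stretch searched runs to chr2:24336859. Distances are counted to the RefSeq start.
Il1rn: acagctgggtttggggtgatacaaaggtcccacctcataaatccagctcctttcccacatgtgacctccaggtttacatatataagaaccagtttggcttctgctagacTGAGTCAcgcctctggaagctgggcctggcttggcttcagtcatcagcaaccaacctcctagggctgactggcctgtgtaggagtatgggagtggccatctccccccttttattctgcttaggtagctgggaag
Il1r1: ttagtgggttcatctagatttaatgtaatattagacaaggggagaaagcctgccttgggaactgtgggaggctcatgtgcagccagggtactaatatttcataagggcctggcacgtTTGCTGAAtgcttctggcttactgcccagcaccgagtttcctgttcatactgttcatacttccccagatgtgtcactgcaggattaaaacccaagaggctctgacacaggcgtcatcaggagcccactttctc
Il18rap: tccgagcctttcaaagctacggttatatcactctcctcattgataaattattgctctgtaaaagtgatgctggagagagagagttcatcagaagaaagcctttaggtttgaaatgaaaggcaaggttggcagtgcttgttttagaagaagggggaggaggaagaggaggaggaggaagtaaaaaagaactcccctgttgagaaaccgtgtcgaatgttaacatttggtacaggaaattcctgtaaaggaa
Il1b: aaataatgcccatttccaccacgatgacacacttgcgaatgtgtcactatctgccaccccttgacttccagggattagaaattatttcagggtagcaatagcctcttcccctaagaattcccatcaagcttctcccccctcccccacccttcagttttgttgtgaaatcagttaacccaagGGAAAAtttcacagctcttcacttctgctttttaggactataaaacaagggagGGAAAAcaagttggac

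All 10 members matched the RefSeq promoter table, and 5 motifs were searched on both strands of the 250 bases before the start; no 2 of the matches found in members overlap. The AP-1 motif TGANTCA was found in Il1rn, 141 bases before the start, and in Il1a, and 6.75% of 32851 promoters hold it. A C/EBP motif, TTGCNNAA, was found in Il1r1 and is held by 9.56% of promoters. The NFAT core GGAAAA was found at 2 places in Il1b and also in Nlrp3, and 20.4% of promoters hold it. The GATA motif AGATAA was found in Nlrp3 alone among the members (9.99% of promoters), and an NF-kB motif in 0 of 10 (1.41% of promoters). Il18rap, Il1r2, Il1rap, Il18 and Il18r1 held none of the 5 spellings. Il1r1, Il1r2, Il18r1 and Il18rap lie within 478 kb of chromosome 1, with the IL-33 and IL-36 receptor genes Il1rl1 and Il1rl2 among them, and Il1a and Il1b within 72 kb of chromosome 2 (GRCm38, coordinates as in the deposited tables). Il1a, Il1b, Il1r1, Il1r2, Il1rap and Il18 overlap other annotated genes, for example Il1b its antisense transcript Il1bos, and the strand setting of the counting is not stated, so their counts could include reads of those genes.

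The sum of gene counts per library was 12632196 to 29257595 among pre-lymphoma libraries, 24480017 to 37568512 with CD4-Cre and 24772099 to 36879923 with CD4-CreERT2. Levels are in CPM, that is gene counts divided by TMM-adjusted library size, and a gene passed at a Benjamini-Hochberg adjusted p under 0.05 in edgeR's quasi-likelihood test over all genes tested. The CD4+ libraries carried the T cell genes of their label, with a summed level of Cd3d, Cd3e, Cd3g, Cd4, Cd5 and Lck of 3425 to 5464 CPM in CD4+ cells and 656.5 to 1797 CPM in spleens. Among all 31 libraries, 2 tumor libraries stood apart in the number of genes with at least 1 count, 34546 in CD4+ cells of VM98 (CD4-Cre) and 18368 in the spleen of VM294 (CD4-CreERT2), beside 21523 to 24649 in the others. The VM98 library also had the lowest sum of gene counts of the CD4-Cre set and its highest share of reads not assigned to a gene, 46.0%. The CD4+ libraries held myeloid transcripts: the summed level of 14 macrophage and monocyte markers was 452.8 to 5874 CPM in CD4+ libraries. In bulk RNA, fewer cells of a type and less RNA per cell cannot be told apart, and this holds for every member below.

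**Figure D1:**
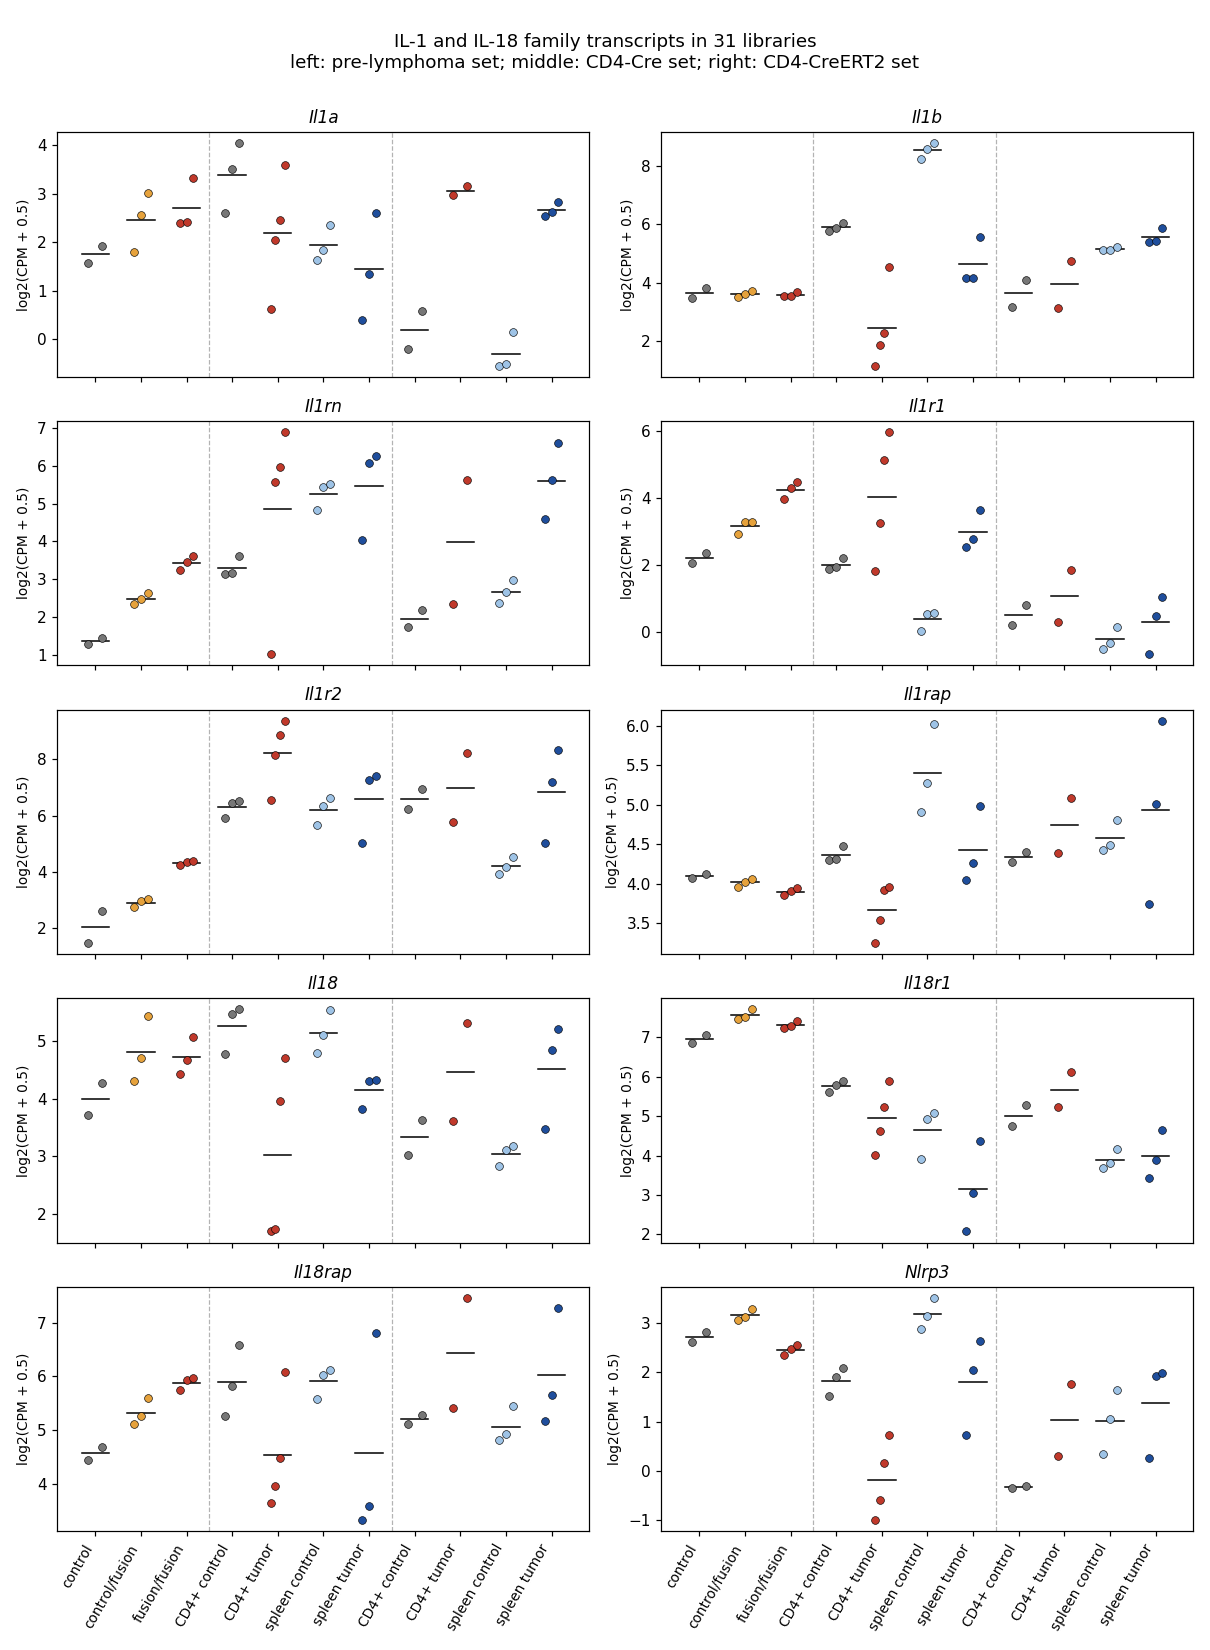
Level of each member in the 31 libraries, as log2(CPM + 0.5) on the y axis, by group on the x axis; points are libraries, short lines are group means, and dashed lines part the pre-lymphoma, CD4-Cre and CD4-CreERT2 sets. Il1rn, Il1r1, Il1r2 and Il18rap step up from control to fusion/fusion in the pre-lymphoma set, Il1b is level there, and tumor groups spread widely.

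In pre-lymphoma CD4+ cells, the antagonist Il1rn, the IL-1 receptor chain Il1r1 and both IL-18 receptor chains rose in control/fusion and in fusion/fusion, the decoy Il1r2 and the ligand Il1a passed in fusion/fusion, and Il1b, Il18, Il1rap and Nlrp3 passed against control in neither. Against control, 4 of 10 members were higher and 0 lower in control/fusion (Il1rn, Il1r1, Il18r1 and Il18rap), where 20.3% of 16257 genes passed in either direction (11.6% higher, 8.70% lower). In fusion/fusion, 6 of 10 were higher and 0 lower (these 4 with Il1a and Il1r2), where 45.7% of all genes passed (23.8% higher, 22.0% lower). The median log2 fold change over the 10 members was 0.82 in control/fusion and 0.97 in fusion/fusion, beside medians near 0 over all genes (0.00128 and -0.00758). The comparisons share the 2 control libraries, so their agreement is no separate evidence.

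Among the ligands, Il1b had 13.5 and 10.7 CPM in the controls, 11.7, 10.9 and 12.5 CPM in control/fusion and 12.3, 11.2 and 11.2 CPM in fusion/fusion. The groups overlapped, and the log2 difference was -0.04 ± 0.14 (SE) in control/fusion and -0.05 ± 0.14 in fusion/fusion. Il1a, the ligand that is active without cleavage, had 2.46 and 3.31 CPM in controls, 7.63, 2.99 and 5.44 CPM in control/fusion and 9.53, 4.74 and 4.84 CPM in fusion/fusion. It passed in fusion/fusion with a log2 fold change of 1.18 ± 0.40 (adjusted p = 0.0328, edgeR), higher in 3 of 3 libraries than in either control. That call was lost without control TA018 (0.98, adjusted p = 0.167), without control TA019 (1.41, adjusted p = 0.0739) or without fusion/fusion library TA023 (0.74, adjusted p = 0.136). Il18 had 12.6 and 19.0 CPM in controls, 42.8, 19.3 and 25.7 CPM in control/fusion and 25.2, 33.1 and 20.99 CPM in fusion/fusion. Every pre-lymphoma library lay above both controls, but neither comparison passed (0.89 ± 0.31, adjusted p = 0.0668, and 0.75 ± 0.31, adjusted p = 0.0684, edgeR). Without control/fusion library TA021 both passed (1.10, adjusted p = 0.0285, and 0.75, adjusted p = 0.0408, edgeR), and without TA020 the second did (adjusted p = 0.0153). TA021 was the control/fusion library nearest to the controls, so the first call gained without it is no separate support.

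Il1rn, the receptor antagonist, rose in both groups. It had 1.92 and 2.21 CPM in controls, 5.08, 4.57 and 5.65 CPM in control/fusion and 11.7, 10.4 and 8.90 CPM in fusion/fusion, so that no pair of groups overlapped. Its log2 fold change was 1.32 ± 0.19 in control/fusion (adjusted p = 0.0017, edgeR) and 2.34 ± 0.19 in fusion/fusion (adjusted p = 1.38e-05). Between the pre-lymphoma groups it was 1.02 ± 0.16 higher in fusion/fusion (adjusted p = 0.0025).

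Il1r1, the signalling receptor chain for IL-1, had 3.67 and 4.61 CPM in controls, 9.20, 6.96 and 9.08 CPM in control/fusion and 21.5, 18.9 and 14.98 CPM in fusion/fusion. It rose by 1.03 ± 0.20 (adjusted p = 0.00611, edgeR) and 2.17 ± 0.20 (adjusted p = 2.51e-05), with no overlap between any of the groups. The decoy Il1r2 had 5.58 and 2.29 CPM in controls, 7.63, 6.21 and 7.24 CPM in control/fusion and 19.9, 18.6 and 20.3 CPM in fusion/fusion. The 2 controls lay apart, and the gene passed in fusion/fusion (2.33 ± 0.29, adjusted p = 0.000142, edgeR) but not in control/fusion (0.85 ± 0.29, adjusted p = 0.0597). Without control TA018, the higher of the controls, the latter was at 1.62 with a lone control left, which is no separate support. The shared accessory chain Il1rap was at 16.3 and 16.9 CPM in controls and 13.9 to 16.2 CPM in the 6 pre-lymphoma libraries, and passed in none of the 3 comparisons (-0.19 ± 0.10 in fusion/fusion, adjusted p = 0.131, edgeR).

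Both chains of the IL-18 receptor rose in both groups. Il18r1, which binds IL-18, had 132 and 116 CPM in controls, 184, 177 and 209.7 CPM in control/fusion and 156, 151 and 169.9 CPM in fusion/fusion. It rose by 0.62 ± 0.09 (adjusted p = 0.00193, edgeR) and 0.37 ± 0.09 (adjusted p = 0.00806), and the latter call was lost without control TA019 (0.27, adjusted p = 0.0944). The signalling partner Il18rap had 21.2 and 25.3 CPM in controls, 37.8, 33.9 and 47.6 CPM in control/fusion and 52.8, 60.5 and 61.9 CPM in fusion/fusion. It rose by 0.79 ± 0.14 (adjusted p = 0.00459, edgeR) and 1.34 ± 0.14 (adjusted p = 6.46e-05), and the 3 groups did not overlap.

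Set against control/fusion, fusion/fusion had 4 members higher (Il1rn, Il1r1, Il1r2 and Il18rap) and 1 lower (Nlrp3), where 18.9% of all genes passed, 9.59% higher and 9.30% lower. Il1r2 was 1.48 ± 0.24 higher (adjusted p = 0.0032, edgeR), Il1r1 1.14 ± 0.17 (adjusted p = 0.00201) and Il18rap 0.55 ± 0.12 (adjusted p = 0.0132). The Il18rap call was lost, barely, without TA024 (0.52, adjusted p = 0.0509). Il18r1 was just outside the threshold in the other direction (-0.25 ± 0.08, adjusted p = 0.0519, edgeR). Nlrp3 had 5.58 and 6.54 CPM in controls, 9.20, 7.86 and 8.18 CPM in control/fusion and 5.07, 4.60 and 5.38 CPM in fusion/fusion. It was thus highest in control/fusion, and fell by 0.74 ± 0.14 from control/fusion to fusion/fusion (adjusted p = 0.00702, edgeR), while the step from control to control/fusion did not pass (0.48 ± 0.16, adjusted p = 0.0538).

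**Figure D2:**
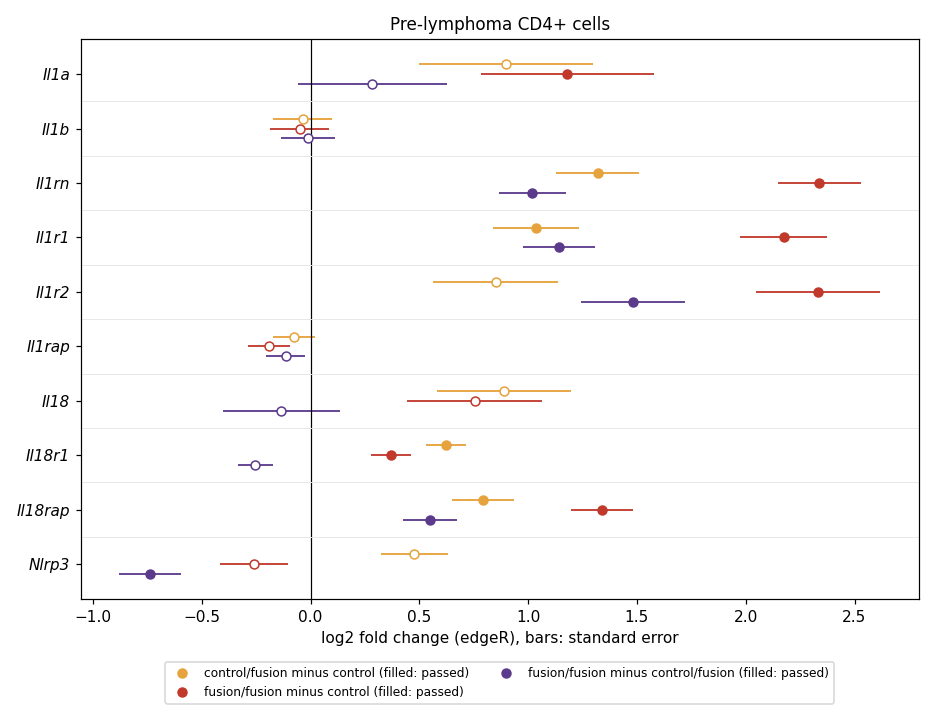
Log2 fold change (x axis) of each member (y axis) in the 3 comparisons of pre-lymphoma CD4+ cells; points are edgeR estimates, bars their standard error, and filled points passed at an adjusted p under 0.05. Il1rn, Il1r1 and Il18rap are filled in all 3 comparisons, and Il1b and Il1rap sit near 0.

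Transcript levels of different genes can be set side by side only per length, here as CPM per kb of exon. In the control cells Il18r1 was the highest member at 25.8 ± 2.36 CPM per kb (SD, n = 2), followed by Il18 at 15.3 ± 4.37 and Il1b at 6.35 ± 1.06. Il1rn, at 0.372 ± 0.0371 CPM per kb, and Il1r1, at 0.650 ± 0.105, were the lowest. Nlrp3 (1.49 ± 0.167), Il1rap (1.46 ± 0.0357) and Il1a (1.46 ± 0.305) lay above both and could not be ordered beyond their spread. In fusion/fusion the first places were again held by Il18r1 (33.0 ± 2.08, n = 3) and Il18 (25.6 ± 5.96), whose ranges of 1 SD touch, and the decoy Il1r2 followed at 10.3 ± 0.461 CPM per kb.

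Genes around these members moved in part. Of all 16257 genes tested, 20.3% passed in control/fusion, 45.7% in fusion/fusion and 18.9% between the pre-lymphoma groups. At an unadjusted p under 0.05 stood 5742, 8652 and 5358 of them, and DESeq2 called 3111, 6484 and 2851. Of 6 related ligands only Il33 was tested, at 0.223 CPM in controls and 0.375 CPM in fusion/fusion, and it did not pass. Of 6 related receptors and decoys, 4 were tested and 2 were higher in control/fusion: Il1rl1, the IL-33 receptor (7.51 to 19.4 CPM, 1.35 ± 0.18), and Il18bp, the soluble IL-18 binding protein (16.1 to 29.9 CPM, 0.90 ± 0.23). In fusion/fusion Il1rl1 was higher by 2.82 ± 0.19 (52.6 CPM) and Il18bp by 0.73 ± 0.23, and Il1rl2, the IL-36 receptor, fell by 0.40 ± 0.15. Between the pre-lymphoma groups only Il1rl1 of this list passed (1.46 ± 0.15). Of 11 adaptors and kinases below the receptors, from Myd88 and the Irak genes to Traf6, Map3k7 and the Tab genes, 0 passed by edgeR in any of the 3 comparisons, 0, 5 and 2 stood at an unadjusted p under 0.05 and DESeq2 called 0, 1 (Irak3) and 0. Their median log2 differences were 0.01, -0.03 and -0.08. The one with the highest level was Tab2, at 237 CPM in controls and 250.1 CPM in fusion/fusion.

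Of the 11 genes on the inflammasome list, 4 passed as higher and 1 as lower in control/fusion, 3 and 3 in fusion/fusion, and 2 and 4 between the pre-lymphoma groups, beside 20.3%, 45.7% and 18.9% of all genes in either direction. Casp4, an inflammatory caspase that senses cytosolic lipopolysaccharide, was 21.9 CPM in controls, 33.6 CPM in control/fusion and 50.1 CPM in fusion/fusion (1.21 ± 0.13 in fusion/fusion). Casp1, which cuts the precursors of IL-1 beta and IL-18, went from 43.6 to 64.2 and 86.0 CPM (0.996 ± 0.103 in fusion/fusion). Txnip, a thioredoxin-binding protein reported to engage NLRP3, fell by 0.65 ± 0.09 in fusion/fusion (837 to 528 CPM). Mefv, which encodes pyrin, was higher in control/fusion (0.63 ± 0.15), and Nlrp1a, another inflammasome sensor, was lower in fusion/fusion than in control/fusion (-0.81 ± 0.24). Against control, Gsdmd was lower in control/fusion (-0.25 ± 0.06) and in fusion/fusion (-0.17 ± 0.06), and Nlrc4 was lower in fusion/fusion (-0.49 ± 0.17). Nek7 was higher in both (0.37 ± 0.09 and 0.45 ± 0.09).

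Some markers of other cells moved beside these genes. Of all genes, 11.6% passed as higher and 8.70% as lower in control/fusion, and 23.8% and 22.0% in fusion/fusion. From control/fusion to fusion/fusion, 9.59% were higher and 9.30% lower. The marker counts below are to be read beside these shares. The summed macrophage and monocyte markers were 1449 and 1687 CPM in controls, 1721 to 3562 CPM in control/fusion and 2184 to 2813 CPM in fusion/fusion, with 3 of 14 markers higher in control/fusion, and 3 higher and 1 lower in fusion/fusion. Lyz2, a myeloid lysozyme on this list, went from 266 CPM in controls to 776 CPM in fusion/fusion. Against control, the median log2 difference over the 14 markers was 0.721 in control/fusion and 0.432 in fusion/fusion. From control/fusion to fusion/fusion the median was -0.462, with 2 markers higher and 1 lower, so Lyz2 did not stand for the list. The highest macrophage and monocyte sum was that of control/fusion library TA020, which also had the highest Il18. The dendritic cell sum was 76.84 to 107.8 CPM in controls and 180.9 to 251.2 CPM in the pre-lymphoma libraries (6 of 7 markers higher in control/fusion and 4 of 7 in fusion/fusion). The NK cell sum was 42.95 and 45.08 CPM in controls, 40.58 to 54.21 CPM in control/fusion and 59.17 to 64.06 CPM in fusion/fusion. The neutrophil sum was 61.28 and 85.04 CPM in controls, 45.46 to 56.82 CPM in control/fusion and 77.95 to 114.2 CPM in fusion/fusion. Of its 10 markers, 1 was lower in control/fusion than in control and 6 were higher in fusion/fusion than in control/fusion (median log2 difference 1.10). The stromal and endothelial sum was 241.5 to 251.1 CPM in controls, 240.2 to 245 CPM in control/fusion and 194.6 to 200.8 CPM in fusion/fusion. Of its 6 markers, 2 were higher in control/fusion, the endothelial genes Cdh5 and Kdr, and in fusion/fusion 4 were higher and 1, Pecam1, was lower, with a median of 1.71 beside the lower sum. The part of these cells in the rise of the members was not tested.

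In tumors, no member passed by edgeR in any of the 4 comparisons with control, and few genes of any kind did: 0.157% of 17841 genes in CD4+ cells of the CD4-Cre set and 0.00% in its spleens and in both tissues of the CD4-CreERT2 set. At an unadjusted p under 0.05 stood 6, 4, 3 and 4 of the 10 members in CD4-Cre CD4+ cells, CD4-Cre spleen, CD4-CreERT2 CD4+ cells and CD4-CreERT2 spleen, beside 2699, 2373, 896 and 3241 of all genes. DESeq2 called 2, 2, 1 and 4 members there and 1263, 737, 272 and 1817 of all genes. The values that follow are therefore descriptions of mice that differ widely from each other. Each library was also left out in turn. A call gained by leaving out the library nearest the other group is built into that choice and is no separate support.

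In the CD4-Cre set, Il1b was the member with the greatest difference in spleen. It had 383, 436 and 299 CPM in control spleens and 17.6, 46.9 and 17.5 CPM in tumor spleens, so the highest tumor lay far under the lowest control. The log2 difference was -3.76 ± 0.47 (adjusted p = 0.207, edgeR), DESeq2 gave an adjusted p of 4.7e-12, and without the tumor mice VM58 or VM98 the edgeR test passed (-4.36, adjusted p = 0.0472, and -3.49, adjusted p = 0.0232). In CD4+ cells of the same set Il1b had 53.8, 65.8 and 58.4 CPM in controls and 3.15, 22.7, 1.75 and 4.33 CPM in tumors. These groups did not overlap either (-2.86 ± 0.81, adjusted p = 0.172, edgeR), and VM58 was again the highest tumor; without it the test passed (-4.23, adjusted p = 0.0188).

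The sums of neutrophil and macrophage markers also differed between these spleens. The summed neutrophil markers were 7703 to 50960 CPM in control spleens, 233.2 and 341.8 CPM in tumor spleens VM388 and VM58 and 74120 CPM in VM98, while Il1b was 17.6, 46.9 and 17.5 CPM in those 3 tumors. The summed macrophage and monocyte markers were 13340 to 24220 CPM in control spleens, 4805 and 4786 CPM in VM388 and VM58 and 22530 CPM in VM98. In CD4+ libraries the macrophage sum was 4062 to 5874 CPM in controls and 452.8 to 4208 CPM in tumors. Tumor spleens VM388 and VM58 lay below every control spleen in the neutrophil and in the macrophage sum. Lyz2 alone was 11800 to 22580 CPM in control spleens and 2837 to 20690 CPM in tumor spleens, so the macrophage sum mostly followed this gene. Between tumor and control spleens, the median log2 difference was -0.186 over the 14 macrophage and monocyte markers. Over the 10 neutrophil markers it was -0.287. VM98 had the highest neutrophil sum of the CD4-Cre set. Its spleen Il1b level lay next to that of VM388, which had the lowest neutrophil sum among the spleens. In CD4+ libraries the NK cell markers summed to 72.21 to 102.1 CPM in controls and 6.715 to 62.82 CPM in tumors. The dendritic cell markers summed to 375.2 to 570.7 CPM in control and 28.01 to 121.6 CPM in tumor CD4+ libraries, without overlap, and 0 of the 7 passed by edgeR (median log2 difference -2.97). The stromal and endothelial sum was 119.8 to 131.9 CPM in control and 34.01 to 100.6 CPM in tumor CD4+ libraries. Lcn2 and Retnlg of the neutrophil list were at 0 counts in the CD4+ cells of VM388, Vsig4 of the macrophage list in those of VM58, and Vsig4 and Marco in those of VM645. The part of these cells in the tumor values was not tested.

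Nlrp3 and Il18 were on the same side as Il1b in this set. Nlrp3 had 3.73, 3.23 and 2.36 CPM in control CD4+ cells and 0.614, 1.16, 0 and 0.163 CPM in tumors; the 0 of mouse VM645 allows up to 0.0997 CPM (3 counts, counting error only). Its groups did not overlap (-2.63 ± 1.09, adjusted p = 0.309, edgeR). Il18 had 27.3, 46.3 and 33.9 CPM in control spleens and 19.7, 19.3 and 13.6 CPM in tumor spleens (-1.02 ± 0.28, adjusted p = 0.251, edgeR). In CD4+ cells it had 26.8, 44.0 and 46.7 CPM in controls and 15.1, 25.8, 2.83 and 2.74 CPM in tumors, which did not overlap. Il1rap had 19.1, 21.9 and 19.4 CPM in control CD4+ cells and 9.02 to 15.03 CPM in tumors (-0.66 ± 0.24, adjusted p = 0.261, edgeR).

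The decoy, the antagonist and Il1r1 lay on the other side in CD4+ tumors. Il1r2 had 92.3, 85.9 and 60.6 CPM in controls and 287, 463, 664 and 93.9 CPM in tumors, the last from VM98 and just above the highest control (2.27 ± 0.59, adjusted p = 0.149, edgeR). Per kb, Il1r2 was the highest member in these tumors, at 198 ± 128 CPM per kb (SD, n = 4), followed by Il18 (11.3 ± 10.8), Il1rn (10.35 ± 8.72) and Il18r1 (7.06 ± 3.92), which could not be ordered beyond their spread. Il1rn had 8.38, 11.8 and 8.32 CPM in controls and 47.3, 61.7, 119 and 1.51 CPM in tumors, so VM98 lay below all controls while the other tumors lay above them (2.61 ± 1.05, adjusted p = 0.296, edgeR). VM98 is the CD4+ library that stood apart in its number of genes with counts. Without it, Il1rn (3.01, adjusted p = 0.0209) and Il1r2 (2.58, adjusted p = 0.0215) passed, while Il1b was at -2.67 (adjusted p = 0.154), Nlrp3 at -2.36 (adjusted p = 0.286) and Il1rap at -0.78 (adjusted p = 0.134, edgeR).

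Il1r1 had 3.33, 3.15 and 4.06 CPM in control CD4+ cells and 61.6, 34.2, 3.003 and 8.94 CPM in tumors VM388, VM58, VM645 and VM98, and VM645 lay below the controls (2.96 ± 0.94, adjusted p = 0.205, and 3.24, adjusted p = 0.105, without VM98, edgeR). In spleen it had 0.978, 0.517 and 0.934 CPM in controls and 6.31, 11.8 and 5.28 CPM in tumors, without overlap (3.26 ± 0.51, adjusted p = 0.207, edgeR), and it passed without VM98 (3.51, adjusted p = 0.0252). The IL-33 receptor Il1rl1, from the same cluster on chromosome 1, had a mean of 13.1 CPM in control and 52.2 CPM in tumor CD4+ cells; the groups overlapped and it did not pass (2.02 ± 0.67, adjusted p = 0.214, edgeR). Il18r1 and Il18rap overlapped between tumor and control in both tissues, and VM98 had the highest value of either chain among the tumors, 59.1 and 66.7 CPM in CD4+ cells; without VM98, Il18rap passed in both tissues, on the lower side.

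**Figure D3:**
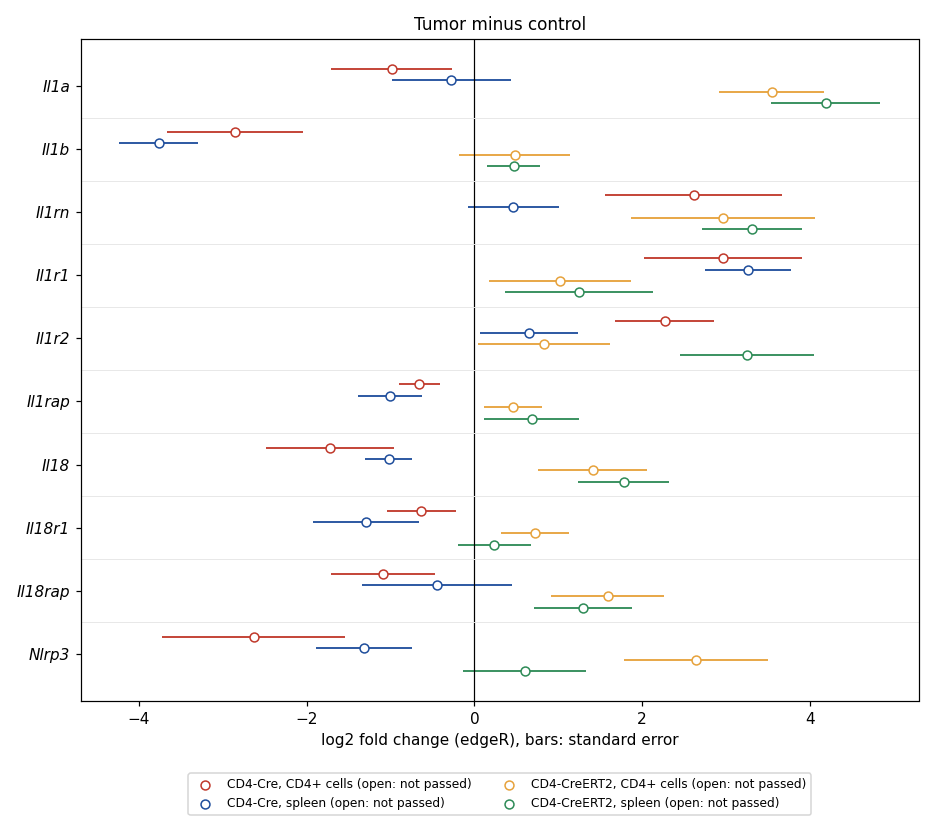
Log2 difference between tumor and control (x axis) of each member (y axis) in 4 comparisons; points are edgeR estimates, bars their standard error, and open points did not pass. Il1a, Il1b, Il1rap, Il18, Il18r1, Il18rap and Nlrp3 lie left of 0 in both tissues of the CD4-Cre set and right of 0 in both tissues of the CD4-CreERT2 set. Il1rn, Il1r1 and Il1r2 lie right of 0 in all 4.

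In the CD4-CreERT2 set the members that stood out were Il1a, Il1rn, Il1r2 and Il18. Il1a had 0.607, 0.202 and 0.183 CPM in control spleens and 6.58, 5.69 and 5.29 CPM in tumor spleens (4.18 ± 0.65, adjusted p = 0.122, edgeR). In CD4+ cells it had 0.370 and 0.984 CPM in controls and 7.33 and 8.43 CPM in tumors (3.54 ± 0.63, adjusted p = 0.842, edgeR). The 5 tumor libraries of both tissues spanned 5.29 to 8.43 CPM and lay above all 5 controls. With a term for sex, Il1a was at 3.63 in CD4+ cells. All controls of this set were female by their sex-linked transcripts, and 1 of 2 CD4+ tumors and 2 of 3 tumor spleens were male. In CD4+ cells that fit sets a lone female tumor against the controls, so no call is drawn from it.

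Il1rn had 5.83, 7.31 and 4.65 CPM in control spleens and 96.3, 23.6 and 48.8 CPM in tumor spleens of VM231, VM236 and VM294 (3.31 ± 0.59, adjusted p = 0.122, edgeR). In CD4+ cells it had 2.82 and 3.99 CPM in controls, 48.4 CPM in VM231 and 4.57 CPM in VM236. Il1r2 had 17.3, 14.7 and 22.8 CPM in control spleens and 322, 31.8 and 146 CPM in the same tumor spleens (3.25 ± 0.80, adjusted p = 0.139, edgeR), and in CD4+ cells 75.7 and 122 CPM in controls, 296 CPM in VM231 and 53.9 CPM in VM236. VM236 was the lowest tumor for both genes in both tissues, so calls gained for them without it are no separate support. Without the spleen of VM236, Il1a (4.32, adjusted p = 0.0296), Il1rn (3.75, adjusted p = 0.0176) and Il1r2 (3.81, adjusted p = 0.0176) passed by edgeR. Without the spleen of VM294, the library with the fewest genes with counts, they were at 4.204, 3.361 and 3.304, and Il18 at 1.317, and 0 of 10 members passed by edgeR, as with it. Without the CD4+ library of VM236, Il1rn was at 3.84 and Il1a at 3.42 in CD4+ cells. In that fit the lone tumor is assumed to vary like the controls, so no call is drawn from it.

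Il18 had 8.09, 6.60 and 8.61 CPM in control spleens and 10.6, 28.4 and 36.9 CPM in tumor spleens (1.78 ± 0.54, adjusted p = 0.172, edgeR). Il1b had 34.6, 34.7 and 36.6 CPM in control spleens and 42.3, 57.6 and 41.8 CPM in tumor spleens, so that the tumors lay above the controls here and below them in the CD4-Cre set. Nlrp3 had 0.302 and 0.285 CPM in control CD4+ cells and 0.731 and 2.92 CPM in tumors (2.64 ± 0.86, adjusted p = 0.916, edgeR). Without VM231, Nlrp3 was at 3.31 and Il1a at 3.62 in CD4+ cells, again with a lone tumor library. Il1r1 stayed between 0.126 and 3.04 CPM in all 10 libraries of the set. Il18rap had 34.2 and 38.4 CPM in control CD4+ cells, 175 CPM in VM231 and 41.8 CPM in VM236, and the spleen of VM231 also had the highest level, 155 CPM.

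The neutrophil markers in this set were 411.6 to 927.8 CPM in control spleens, 104300 CPM in VM231, 54510 CPM in VM294 and 2904 CPM in VM236, in the same order as Il1rn and Il1r2, whose values are given above. In CD4+ cells the sums were 49.30 and 67.76 CPM in controls, 5746 CPM in VM231 and 105.6 CPM in VM236. The macrophage and monocyte sum was 1518 to 1806 CPM in control spleens. In tumor spleens VM231, VM294 and VM236 it was 15680, 13640 and 4669 CPM, again in that order. The CD4-Cre tumor spleens VM388, VM58 and VM98 had neutrophil sums of 233.2, 341.8 and 74120 CPM. Il1rn had 67.0, 76.0 and 16.0 CPM in them, and Il1r2 had 32.5, 170 and 155 CPM. The part of these cells in the tumor values of the members was not tested. The CD4-Cre and CD4-CreERT2 sets differ in driver, in the layout of their count tables and in the sex of their controls. By sex-linked transcripts, 2 of 3 control spleens were male in the first and 0 of 3 in the second. These differences cannot be told apart.

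Of the 34 genes on the pathway lists, 27 were tested in each comparison of tumor with control, and 0 passed by edgeR. At an unadjusted p under 0.05 stood 5, 5, 3 and 6 of the 27 in CD4-Cre CD4+ cells, CD4-Cre spleen, CD4-CreERT2 CD4+ cells and CD4-CreERT2 spleen. Over all genes these were 2699 of 17841, 2373 of 17050, 896 of 17341 and 3241 of 16163. DESeq2 called 2 (Il1rl1 and Sigirr), 1 (Il1rl1), 1 (Il18bp) and 3 (Il18bp, Pycard and Mefv), beside 1263, 737, 272 and 1817 of all genes. Il36g, an IL-36 ligand, averaged 59.8 CPM in control and 10.8 CPM in tumor spleens of the CD4-Cre set, and 5.46 and 72.7 CPM in those of the CD4-CreERT2 set. Il18bp averaged 4.09 CPM in control and 64.3 CPM in tumor spleens of the CD4-CreERT2 set. Among adaptors, Irak1 averaged 217 CPM in control and 216 CPM in tumor CD4+ cells of the CD4-Cre set, and Myd88 averaged 118 CPM and 151 CPM in those of the CD4-CreERT2 set.

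CD4+ cells and spleens of control mice differed in 7 members in one set and in 4 in the other. In the CD4-Cre set, 3 members were higher in CD4+ cells than in spleen (Il1a, Il1r1 and Il18r1) and 4 were lower (Il1b, Il1rn, Il1rap and Nlrp3), where 25.7% of 17426 genes passed (12.9% higher, 12.8% lower). In the CD4-CreERT2 set, 2 were higher (Il1r2 and Il18r1) and 2 lower (Il1b and Nlrp3), where 21.6% of 16951 genes passed (10.3% higher, 11.3% lower). Il18 and Il18rap passed in neither. CD4+ cells and spleens of a set share mice, and the same mouse was kept as a block in the alternative fit.

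Il1b was 59.3 ± 6.02 CPM in CD4+ cells and 372 ± 69.1 CPM in spleen of CD4-Cre controls (SD, n = 3 each), a fall of -2.68 ± 0.17 (adjusted p = 0.000137, edgeR), and 12.6 ± 5.84 CPM (n = 2) and 35.3 ± 1.13 CPM (n = 3) in CD4-CreERT2 controls (-1.47 ± 0.26, adjusted p = 0.0046). Nlrp3 was 3.11 ± 0.695 and 8.69 ± 2.03 CPM in the first set (-1.50 ± 0.29, adjusted p = 0.00932, edgeR) and 0.294 ± 0.0123 and 1.65 ± 0.915 CPM in the second (-2.47 ± 0.60, adjusted p = 0.0189). The second call was lost without CD4+ library A1 (adjusted p = 0.0653), CD4+ library A3 (adjusted p = 0.0899) or spleen A2 (adjusted p = 0.0501). Il1rn fell by 2.05 ± 0.23 from spleen to CD4+ cells in the CD4-Cre controls (adjusted p = 0.00116, edgeR).

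Il18r1 was 54.0 ± 5.25 CPM in CD4+ cells and 25.9 ± 10.1 CPM in spleen of CD4-Cre controls (1.03 ± 0.28, adjusted p = 0.0333, edgeR) and 32.4 ± 8.41 and 14.4 ± 2.77 CPM in CD4-CreERT2 controls (1.18 ± 0.21, adjusted p = 0.00498). The first of these was lost without CD4+ VM211 (adjusted p = 0.0866), CD4+ VM216 (adjusted p = 0.0897) or spleen VM216 (adjusted p = 0.0671). Il1r1 was 3.51 ± 0.480 CPM in CD4+ cells and 0.809 ± 0.255 CPM in spleen of CD4-Cre controls (2.08 ± 0.38, adjusted p = 0.00803, edgeR). In CD4-CreERT2 controls it did not pass (1.37 ± 0.58, adjusted p = 0.124, edgeR) unless the mouse was a block (1.87, adjusted p = 0.0221). Il1a was higher in CD4+ cells of CD4-Cre controls (1.63 ± 0.42, adjusted p = 0.0261, edgeR), a call lost without CD4+ VM211 (adjusted p = 0.0685), spleen VM211 (adjusted p = 0.0639), CD4+ VM645 (adjusted p = 0.0619) or spleen VM645 (adjusted p = 0.0859). The fall of Il1rap (-1.16 ± 0.27, adjusted p = 0.0186, edgeR) was lost without CD4+ VM211 (adjusted p = 0.0671) or CD4+ VM216 (adjusted p = 0.0535).

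The decoy Il1r2 differed between the sets in this respect. It was 79.6 ± 16.8 CPM in CD4+ cells and 76.1 ± 24.3 CPM in spleens of CD4-Cre controls (0.04 ± 0.26, adjusted p = 0.922, edgeR), and 99.1 ± 33.1 and 18.3 ± 4.15 CPM in CD4-CreERT2 controls (2.45 ± 0.24, adjusted p = 0.000243). Whether these tissue differences differ from each other was not tested. All 10 neutrophil markers were lower in CD4+ cells than in spleen of controls in both sets, beside 12.8% and 11.3% of all genes. Their sum in control spleens was 7703 to 50960 CPM in the CD4-Cre set and 411.6 to 927.8 CPM in the CD4-CreERT2 set. Its part in the spleen levels was not tested.

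**Figure D4:**
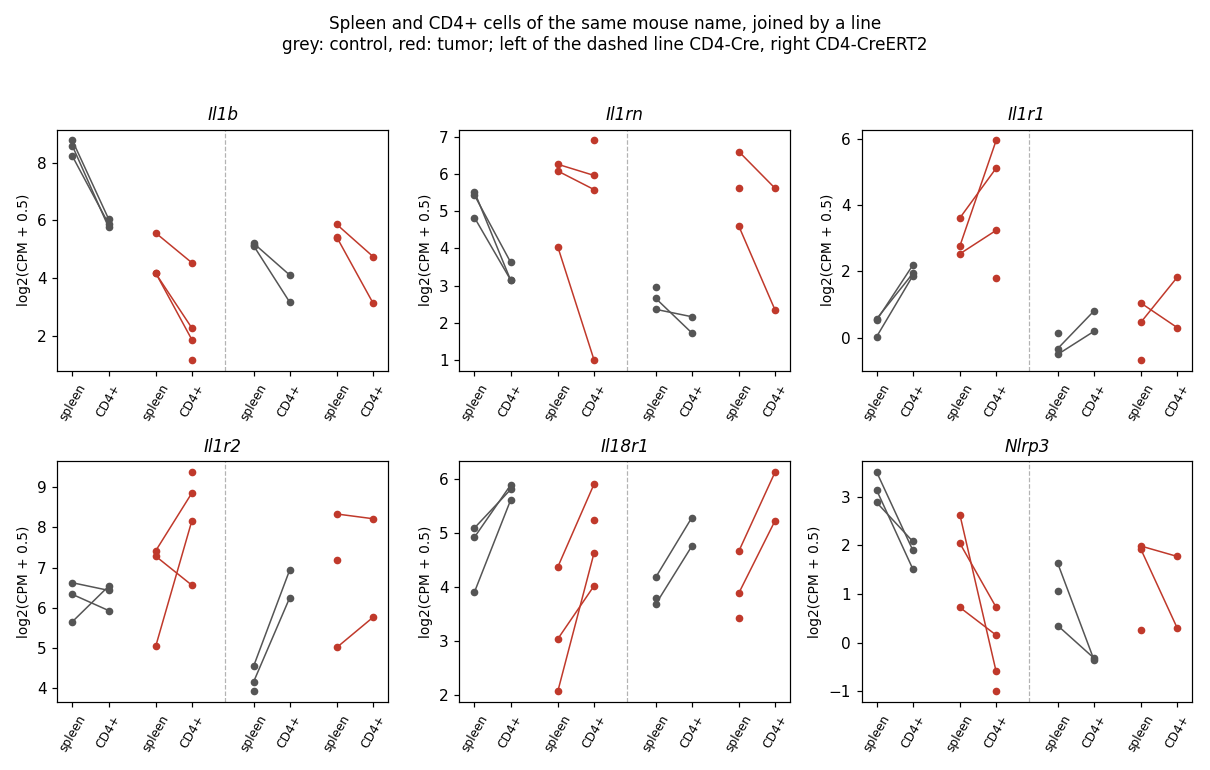
Level of 6 members as log2(CPM + 0.5) on the y axis in spleen and CD4+ cells, joined by a line for the same mouse name (grey, control; red, tumor), with the CD4-Cre set left and the CD4-CreERT2 set right of the dashed line; unjoined points have 1 tissue only. Il1b is lower in the CD4+ cells than in the spleen of each joined mouse, and Il18r1 is higher.

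Around the members, Il36g was lower in CD4+ cells than in spleen of both control groups (-4.87 ± 0.47 and -4.89 ± 0.61), as was Irak3, a kinase-dead brake on the pathway (-1.24 ± 0.17 and -1.21 ± 0.15). Sigirr, an inhibitory receptor of the family, was higher (1.44 ± 0.12 and 0.70 ± 0.15), and so was Il1rl2 (1.57 ± 0.28 and 1.76 ± 0.33). Il1rl1 was higher in CD4+ cells of the CD4-Cre controls (2.87 ± 0.28). In CD4-CreERT2 controls it averaged 8.85 CPM in CD4+ cells and 3.39 CPM in spleen, and DESeq2 called it there. Nlrc4, another inflammasome sensor, was lower in CD4+ cells of both (-0.99 ± 0.21 and -1.55 ± 0.19).

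In tumor mice, 0 of 10 members passed by edgeR or by DESeq2 between CD4+ cells and spleen, and 0.00% of 17534 genes in the CD4-Cre set and of 17467 genes in the CD4-CreERT2 set passed by edgeR. At an unadjusted p under 0.05 stood 2 members in the first set (Il1r2 and Il18r1) and 1 in the second (Il18r1), beside 2490 and 672 of all genes. DESeq2 called 1238 and 71 of all genes. The interaction terms, which test whether the tumor difference is another in spleen than in CD4+ cells, passed for 0 of 10 members in either set by edgeR and DESeq2, with 0 of 10 at an unadjusted p under 0.05. Over all genes the term passed for 0.00% by edgeR in both sets, at an unadjusted p under 0.05 for 1428 of 19503 genes in the CD4-Cre set and 479 of 18529 in the CD4-CreERT2 set, and by DESeq2 for 51 and 0. For Il1r2 the term was -1.67 ± 0.88 in the CD4-Cre set (adjusted p = 0.683, edgeR) and 2.38 ± 1.25 in the CD4-CreERT2 set (adjusted p = 0.972).

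Across all 31 libraries, centred within each set, the genes whose level was most like that of Il1b were Trim30b (Pearson r = 0.896), Blvrb (0.881), Mob3b (0.871), Rnf130 (0.868) and Gm6377 (0.860). Those most like Il18 were Clec4n (0.929), Fcna (0.911), Hfe (0.905), Clec4b1 (0.898) and Apoe (0.880), of which Clec4n is a myeloid lectin receptor and Apoe an apolipoprotein made by macrophages. Those most like Il18r1 were Msantd4 (0.865), Cd84 (0.863), Cxcr3 (0.850), Cd226 (0.840) and Hopx (0.823), among them the chemokine receptor of type 1 T cells, Cxcr3. These are descriptions over 11860 genes. The 31 libraries share mice, tissue and cell makeup, so a common level of one cell type enters every such value.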

How the data were processed

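Poly-A RNA of CD4+ cells or spleen was made into SMART-Seq v4 and Nextera XT libraries, per the labels' protocols. The deposited tables hold raw counts per gene, which the authors made with HISAT2 2.1.0 and HTSeq 0.5.4 on mm10 (for the CD4-CreERT2 set also GRCm38), per the submitters' processing notes; strand and annotation release are not given in the sources used here. The CD4-CreERT2 tables list 49315 Ensembl genes with the coordinates of GENCODE M21, of which 48970 were matched to symbols; the others list 55276 symbols. Entries assigned to no gene (27.2% to 46.0% in the pre-lymphoma and CD4-Cre tables) were left out. Amplified reads are not independent molecules, so depth covers counting error only.

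Each comparison was fitted on its own groups (the 3 pre-lymphoma groups, and the 4 groups for an interaction, together) with edgeR 4.0.16 in R 4.3.3: filterByExpr, TMM scaling and the two-sided quasi-likelihood F test, with Benjamini-Hochberg adjustment over all genes tested and a threshold of 0.05. A standard error is the log2 fold change over the square root of F. Scripts were tested on simulated data. The 10 members, the lists of 34 pathway and 62 marker genes and the motifs were chosen with earlier results of these data known. Of each list up to 3 genes that passed with the largest change are named, or the one of the highest level, with a few others chosen after their values were seen; 5 genes are named as most like Il1b, Il18 and Il18r1, among those of mean log2 CPM of at least 1. Alternatives were RLE scaling, TMM without immunoglobulin and similar genes, no filter, DESeq2 1.42.0, the compared groups alone, the mouse as a replicate block, leaving out VM645 or each library, and, added after seeing the data, a sex term. Mouse numbers in the titles pair tissues; deviations from group means of same-numbered libraries correlated at 0.372 to 0.512 in the CD4-Cre set and at 0.0165 to 0.485 in the CD4-CreERT2 set. No libraries were duplicates.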

Additional observations from a re-analysis of the deposited data

Results flagged for a closer look

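In CD4+ tumors of the CD4-Cre set, Il1b of mouse VM58 stood apart at 22.7 CPM from the other 3 tumors (1.75 to 4.33 CPM), with a gap of 0.877 of the group's range; 1 of 10 members was so marked in this group of 4, and chance marks about 1 in 20.

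3 members lay on opposite sides of their controls in the CD4-Cre and the CD4-CreERT2 tumors, with every tumor library beyond every control, out of 40 pairs of comparisons examined; the difference itself was not tested. Of all genes tested in both sets, 3.92% of 14981 in spleen and 3.27% of 15749 in CD4+ cells did the same, beside 2 and 1 of the 10 members, and 0 of 10 did so between the tissues of either set (0.535% of 16266 genes with CD4-Cre, 1.23% of 15795 with CD4-CreERT2). Il1b in spleen was under its controls in the CD4-Cre set (-3.76) and over them in the CD4-CreERT2 set (0.47). Its control spleens were at 299 to 436 CPM in the first and 34.6 to 36.6 CPM in the second. Its tumor spleens were at 17.5 to 46.9 CPM and 41.8 to 57.6 CPM. Il18 in spleen was under its controls (-1.02) in the first and over them (1.78) in the second. Nlrp3 in CD4+ cells was at -2.63 in the first and 2.64 in the second. None of these log2 differences passed by edgeR.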

How the results depend on the processing

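The number of members called kept within 1.5 times of its value in 65 of 74 alternatives other than left-out libraries. Without the filter on low counts, 7 members (not 4) passed between control/fusion and control, and 3, 2 and 3 (not 0) between tumor and control in CD4-Cre CD4+ cells, CD4-Cre spleen and CD4-CreERT2 spleen. DESeq2 called 2, 2, 1 and 4 in CD4-Cre CD4+ cells, CD4-Cre spleen, CD4-CreERT2 CD4+ cells and CD4-CreERT2 spleen. In CD4-CreERT2 CD4+ cells the sex term also moved the count, but it leaves a lone female tumor, so no count is given. Causes were not tested. Leaving out 1 library gave 0 to 3 members in each of CD4-Cre CD4+ cells, CD4-Cre spleen and CD4-CreERT2 spleen. Between CD4+ cells and spleen of CD4-Cre controls it gave 4 to 6 (not 7). In CD4-CreERT2 CD4+ cells it leaves a lone library in a group, so no count is given. Shares of all genes are not set beside the counts without the filter or without 1 library. Those counts are therefore not read as particular to the members. With the mouse as a replicate block, 7 members passed between the tissues of CD4-Cre controls and 5 of CD4-CreERT2 controls (not 4, adding Il1r1 at 1.87), and 0 in the paired tumor and interaction fits, so no other call of a member changed. Of 667 alternative values of 54 fold changes with an unadjusted p under 0.05, 18 lost and 46 gained a call and 0 changed sign. In the tumor comparisons 2 to 4 mice a group limit what can be called, and levels of Il1a, Il1r1 and Nlrp3 below 1 CPM rest on few counts.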
